A study of Homo sapiens with 63 samples.

Results

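The SR splicing factor family was described here through 10 genes (SRSF1, SRSF2, SRSF3, SRSF4, SRSF5, SRSF6, SRSF7, SRSF9, SRSF10 and SRSF11) of the 11074 genes measured. The members were chosen by name, with no measured value in the rule, although earlier results of these data were known. Every one of the 10 had a signal above 0 in all 20 fractions of each gradient. Their mRNAs were followed through polysome gradients of HEK293 cells, an established human embryonic kidney line. A polysome gradient separates ribosomes, mRNAs and other particles by how they sediment, and mRNAs that carry many ribosomes sediment fast.

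Cells in log phase grew in DMEM with serum, a second culture was kept without serum for 2 h, and another was kept for 1 h without amino acids in a salt solution (EBSS) that held vitamins and serum. The last medium therefore replaced DMEM as well as its amino acids, and its serum was still present. All cells received cycloheximide, which holds ribosomes on mRNA, and antibiotics. Of the 63 samples described, 60 were fractions 3 to 22 of 3 gradients and 3 were lysates, which were not analysed here. Each condition gave 1 gradient, so differences between conditions were not tested and are described by size. The odd-numbered and the even-numbered fractions were analysed apart, and the difference between them is the spread quoted below. Both come from the same gradient, so that spread does not show how far a further gradient would differ.

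SR proteins bind exonic RNA through RNA recognition motifs and recruit the splicing machinery through a domain rich in arginine and serine. SRPK kinases in the cytoplasm and CLK kinases in the nucleus phosphorylate that domain and so set where the proteins sit, and several members shuttle to the cytoplasm with spliced mRNA. SR genes are known to restrain their own expression by including poison exons, whose premature stop codons send the transcript to nonsense-mediated decay. The values here were 1 per gene and cannot separate such isoforms.

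The deposited value is called signal. Its table's name calls it TPM, a unit per transcript length, and comparisons between genes rest on that. Fraction totals ran from 36830 (fraction 6, log phase) to 66981600 (fraction 18, log phase), so the authors had put each fraction on a further scale, which the sources used here leave unstated. A gene's level is its share of the gradient's summed signal, given per 1000000. Its position was the mean fraction number weighted by signal. A second reading, called equal totals, scaled every fraction to the same total. The abundance within a fraction was the signal per 1000000 of that fraction, which does not use the scale between fractions. Whether low or high numbers held the heavier material is not stated in the labels. Of 10 genes known in HEK293 cells, 9 had a row, with summed levels of 2052, 2221 and 2022 in the log phase, serum-free and amino acid-free gradients. None of 11 markers of blood, liver, fibroblast, muscle and endothelial cells had a row, and the table holds only genes that passed an unstated filter.

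Promoter sequence was at hand for 9 of the 10 members in RefSeq (GRCh38.p14), which allowed the family to be compared at its transcription start sites. The 4 windows below run from 100 bases before the annotated start to 20 bases after it, 5' to 3' on the gene's strand. Capitals mark the letters of the motifs searched on either strand (the CCAAT box, the TATA box as TATAAA, the ETS core as CCGGAAG and the NRF1 core as GCGCATGCG) or, in SRSF9, a start at C followed by pyrimidines. They show the member with the lowest level relative to log phase without serum (SRSF7), the most abundant member (SRSF3), the member with the largest upward shift (SRSF5) and the only member with a pyrimidine start (SRSF9).
SRSF7, chr2:38751342-38751461, minus strand: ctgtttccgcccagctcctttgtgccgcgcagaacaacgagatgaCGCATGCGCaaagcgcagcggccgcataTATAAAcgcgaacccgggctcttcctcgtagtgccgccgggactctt
SRSF3, chr6:36594262-36594381, plus strand: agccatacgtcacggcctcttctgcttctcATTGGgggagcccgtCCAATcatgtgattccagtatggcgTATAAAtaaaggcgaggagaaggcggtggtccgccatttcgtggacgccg
SRSF5, chr14:69767042-69767161, plus strand: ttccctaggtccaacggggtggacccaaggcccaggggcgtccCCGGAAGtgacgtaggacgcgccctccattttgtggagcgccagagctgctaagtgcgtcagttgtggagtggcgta
SRSF9, chr12:120469729-120469848, minus strand: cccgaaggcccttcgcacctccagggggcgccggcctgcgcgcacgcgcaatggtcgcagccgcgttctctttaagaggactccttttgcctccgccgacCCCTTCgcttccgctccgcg
Within the full windows of 300 bases, TATAAA was found for 3 of 9 members (SRSF3, SRSF7 and SRSF11) and for 7.32% of 8829 genes of the table. GCGCATGCG was found for SRSF7 and SRSF10 and for 4.50% of genes, CCGGAAG for SRSF4 and SRSF5 and for 23.8%, and CCAAT for SRSF3 alone and for 43.9%. The matches of SRSF11, SRSF10 and SRSF4 lay outside the stretch from 100 bases before to 20 bases after a start. The E-box CACGTG, present for 13.1% of genes, and the cyclic AMP element TGACGTCA, present for 4.04%, were found for 0 of 9. A start at C followed without a break by pyrimidines to a run of at least 5, the form of the 5' terminal oligopyrimidine tract that makes translation of ribosomal protein mRNAs sensitive to nutrients, was annotated for 1 of 9 members (SRSF9), for 7.66% of all genes and for 70.5% of 61 ribosomal protein genes. SRSF7 and SRSF11 have 2 annotated starts each, a gene was counted where the window of any of its starts held the motif, and the downstream start of SRSF7 is the one printed. These matches are letters in a window and were not tested as sites.

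In log phase the family was abundant, with a median level of 207 against 13.9 over all genes. SRSF3, a small SR protein that acts in splicing, polyadenylation and mRNA export, had by far the largest share, with a level of 1454 (1354 in odd and 1538 in even fractions), which placed it at rank 111 of all genes. SRSF2, a component of nuclear speckles, followed at 776, and SRSF7, an export adaptor closely related to SRSF3, at 627. SRSF9, the nearest relative of SRSF1, was at 313 and SRSF5 at 248. SRSF6 (167) and SRSF4 (138), which share the domain layout of SRSF5, came next, followed by SRSF1 (121), the best studied member, which also acts in translation and decay. SRSF10, a repressor of splicing when it is dephosphorylated, and SRSF11, a more distant member, stood last at 88.7 and 87.9. Their odd and even values overlapped, and no other neighbours in the log phase order did.

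The 10 members together had a level of 4021 in log phase, 2054 in the serum-free and 1610 in the amino acid-free gradient, or 0.402%, 0.205% and 0.161% of the totals. SRSF3 was first and SRSF2 second in every gradient, and SRSF11 was last. The order in between was the same without serum. Without amino acids SRSF1 and SRSF4 changed places, and SRSF2 (239) and SRSF7 (212) overlapped in their odd and even values, as did SRSF7 and SRSF9 (195), SRSF1 (43.7) and SRSF4 (37.6), and SRSF4 and SRSF10 (34.9). SRSF8, a retrocopy of SRSF2 whose reads may be shared with it, had a level of 37.0 in log phase.

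**Figure D1:**
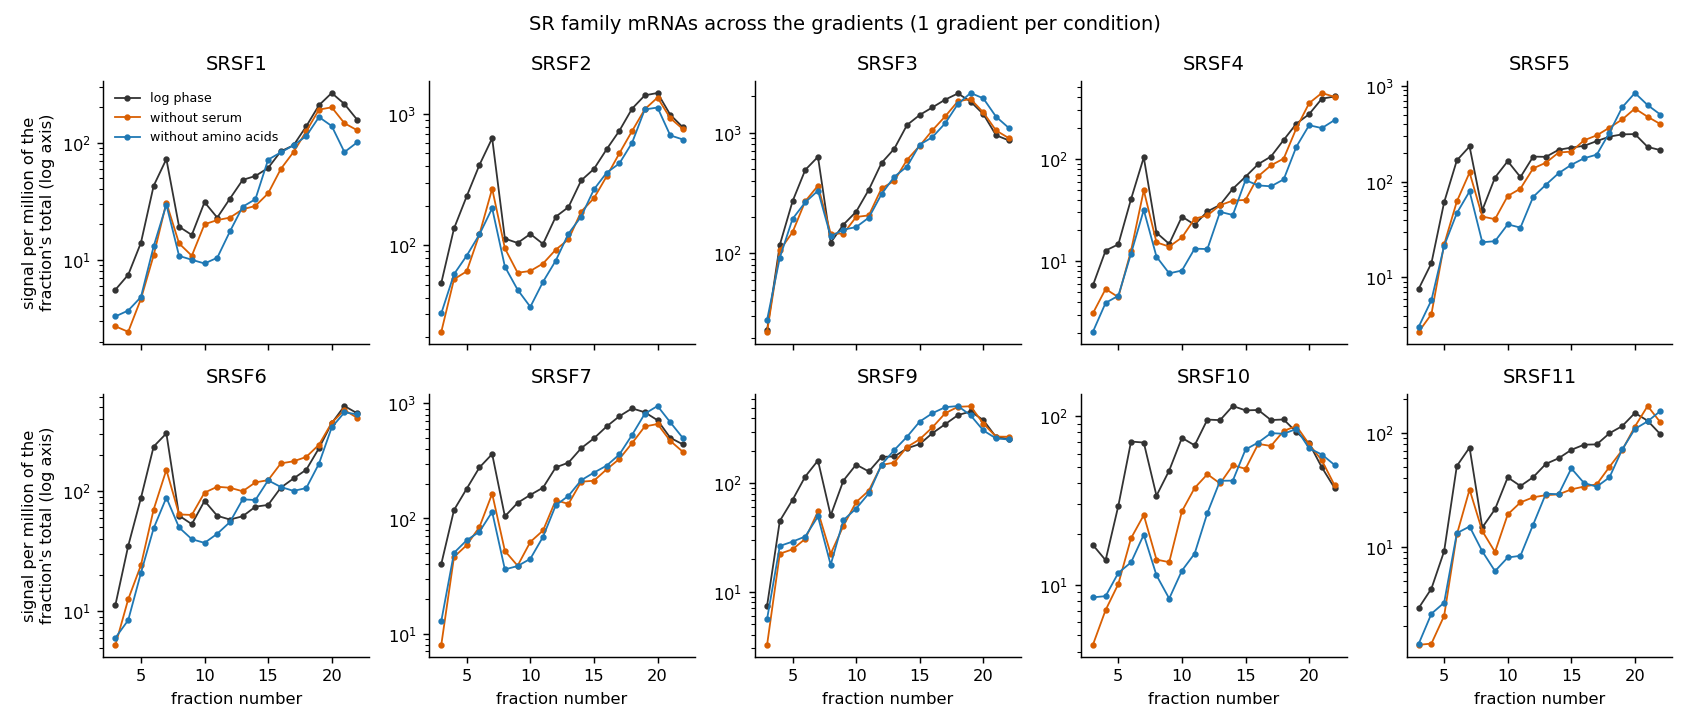
Abundance within each fraction (signal per 1000000 of the fraction's total, log axis) of the 10 SR mRNAs over fraction numbers 3 to 22, with 1 line per gradient and no replicate. Most members have a small maximum at fraction 7, among fractions with little deposited signal, and their largest values in fractions 18 to 22. There SRSF5 without amino acids reaches 842 against a highest value of 313 in log phase.

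Across fractions, most SR mRNAs shared a profile with a small maximum at fraction 7 and a rise towards the highest numbers. Fractions 3 to 7 held little deposited signal, in log phase 0.056% for the median member and 0.107% for the median gene. With equal totals they held 12.0% and 16.4%. The abundance of SRSF3 in log phase ran from 23.1 (fraction 3) through a median of 682 to 2108 (fraction 18), without serum from 22.4 through 380 to 1896 (fraction 19), and without amino acids from 28.1 through 380 to 2127 (fraction 19). SRSF2 ran from 51.8 through 346 to 1441 (fraction 20) in log phase, from 22.0 through 151 to 1330 without serum and from 30.4 through 144 to 1117 without amino acids. The highest fractions of SRSF3 were thus close in all 3 gradients, while its median fraction was lower in both starved ones. SRSF10 had another form: in log phase it ran from 14.0 (fraction 4) through 70.2 to 115 in fraction 14, well before the end of the gradient, whereas its maximum lay in fraction 19 without serum (87.4) and without amino acids (83.9).

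On the deposited scale, SR mRNAs lay at higher-numbered positions than most mRNAs in log phase. The family median was 17.49 (17.49 in odd and 17.48 in even fractions) against 16.94 for the 10889 genes that had a mean signal of at least 5 and values above 0 in at least 15 fractions of each gradient. All 10 members passed. SRSF4 (18.40), SRSF6 (18.21), SRSF1 (18.17) and SRSF2 (18.06) formed an upper group whose neighbours overlapped in odd and even values. SRSF11 (17.60), SRSF7 (17.38), SRSF9 (17.34), SRSF3 (17.28) and SRSF5 (17.11) followed without overlap. SRSF10, at 16.40, was the only member below the median gene. With equal totals the family stood at 15.77 against 14.22, and SRSF10 (13.70) was again the only member below the median gene. The order of the others changed: SRSF4 (17.87), SRSF1 (17.05) and SRSF2 (16.25) stayed highest. SRSF6 (15.64) left the upper group and lay below SRSF3 and SRSF11 (15.91 each). SRSF3, SRSF9 (15.61) and SRSF7 (15.50) thus stood in the reverse of their order on the deposited scale. Longer coding regions can hold more ribosomes, and coding length was not analysed here.

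**Figure D2:**
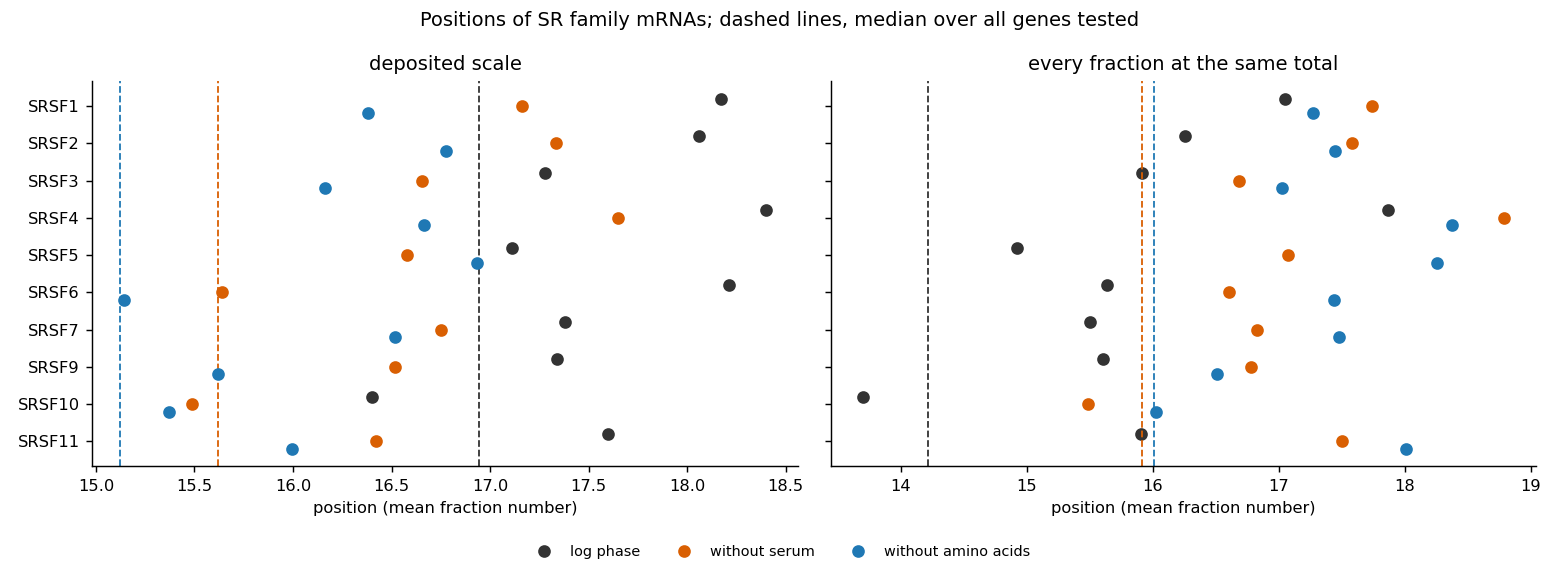
Positions (mean fraction number) of the 10 members in 3 gradients, on the deposited scale at left and with every fraction at the same total at right, with dashed lines at the medians of all 10889 genes. Log phase points lie to the right of the starved points in the left panel and to their left in the right panel, as does the log phase dashed line.

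The first comparison asks how SR mRNAs responded to 2 h without serum. Relative to the median gene, the level of most members was lower. SRSF7 was at 224 against 627 in log phase, SRSF11 at 35.1 against 87.9, SRSF2 at 345 against 776, SRSF1 at 59.0 against 121, SRSF3 at 722 against 1454 and SRSF10 at 44.2 against 88.7. SRSF4 was at 74.4 against 138, SRSF9 at 213 against 313, SRSF5 at 197 against 248 and SRSF6 at 140 against 167. The median log2 difference of all 8199 genes with a level of at least 5 in either gradient was -0.43, and the values that follow are relative to it, with a pseudocount of 1.

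The median of the family was -0.57 (-0.50 in odd and -0.61 in even fractions), and the members ranged from -1.05 for SRSF7 to 0.18 for SRSF6, with 8 of 10 below 0. A size rule of 1 on the log2 scale, with 0.5 in the same direction in odd and in even fractions, was met in the lower direction by 1 member, SRSF7 (-0.99 in odd and -1.09 in even fractions), against 0.903% of all genes, with 3.06% higher. With equal totals SRSF7 was at -0.62 and 0 members met that rule, against 0.782% of genes lower and 2.01% higher. SRSF7 stood at -0.98 without fraction 17 and -0.97 without fraction 18, so its place past the rule rests on each of them. A smaller rule of 0.5, with 0.25 in odd and even fractions, was met in the lower direction by 6 members (SRSF1, SRSF2, SRSF3, SRSF7, SRSF10 and SRSF11), against 12.0% of all genes, and in the higher direction by 0 members, against 16.4%. With equal totals the family median was -0.21, 6 members were below 0, and the smaller rule was met by 2 members, SRSF7 and SRSF10, against 8.40% of genes lower and 12.2% higher. A level is a share of the gradient's signal and does not depend on how many cells were used, and in bulk samples fewer cells of a type that holds an mRNA and less of it per cell cannot be told apart.

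The second comparison asks the same of 1 h without amino acids. Every member was below its log phase level by more than the median gene, whose log2 difference was -0.59 over 8202 genes. SRSF4, at 37.6 against 138, SRSF11, at 25.4 against 87.9, and SRSF2, at 239 against 776, were the lowest, with log2 differences relative to the median gene of -1.26 (-1.23 in odd and -1.30 in even fractions), -1.16 (-1.07 and -1.24) and -1.10 (-0.92 and -1.28). These 3 members met the rule of 1 in the lower direction, against 2.84% of all genes, and 0 met it in the higher direction, against 4.96%. SRSF7 (212 against 627) missed it at -0.97. SRSF1 was at -0.86, SRSF10 at -0.73 and SRSF3 at -0.70, while SRSF6 (-0.43), SRSF5 (-0.20) and SRSF9 (-0.09) were nearest to the median gene.

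The family median was -0.80 (-0.65 in odd and -0.94 in even fractions). The smaller rule was met in the lower direction by 7 members (SRSF1, SRSF2, SRSF3, SRSF4, SRSF7, SRSF10 and SRSF11), against 17.3% of all genes, and by 0 in the higher direction, against 19.6%. With equal totals the median was -0.40, 8 members were below 0, and 0 met the rule of 1, against 1.13% of genes lower and 2.36% higher. The smaller rule was then met in the lower direction by 2 members (SRSF4 and SRSF10), against 12.1% of genes lower and 14.8% higher. Both starved gradients were compared with the same log phase gradient, so the values of the 2 comparisons are not independent.

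**Figure D3:**
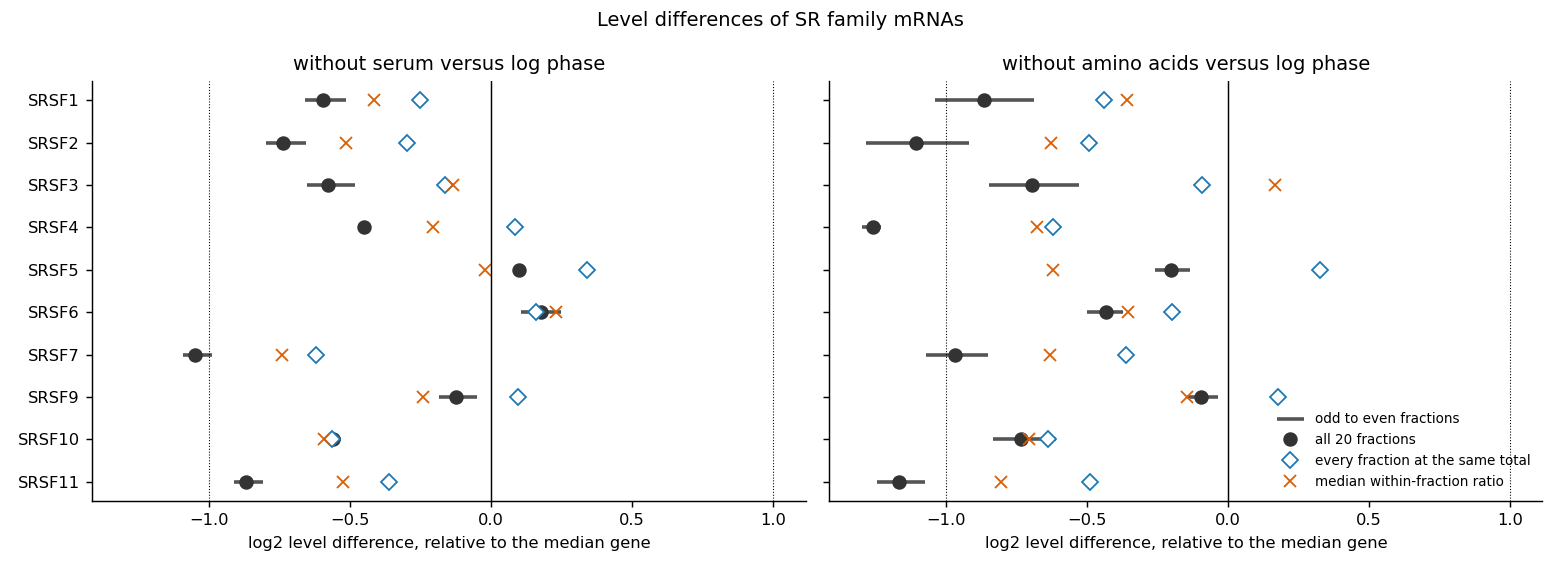
Log2 level difference of each member relative to the median gene, without serum at left and without amino acids at right, each against log phase. Filled circles use all 20 fractions, bars join the odd and even values, open diamonds use equal totals, crosses are the median of the 20 within-fraction ratios, and dotted lines mark 1 and -1. All 10 diamonds lie to the right of their circles in the right-hand panel, with SRSF5 at 0.33 against -0.20.

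Ratios taken inside each fraction number do not depend on how fractions were scaled to each other. Each is the log2 ratio of the abundance within that fraction between gradients, minus the median gene. Every fraction number counts equally here, also fractions 3 to 7 with their small shares of the deposited signal. Without serum, SRSF7 and SRSF10 were lower in 20 of 20 fractions and SRSF2 in 19. The largest gap of SRSF7 was in fraction 3 (-1.62), and among fractions 13 to 18 it was in fraction 17 (-1.45). These 3 members were lower in 18 or more fractions, a limit set after the values were seen, against 7.12% of all genes. SRSF11 was lower in 17 and SRSF1 in 16, SRSF9 and SRSF4 in 13, SRSF3 in 12 and SRSF5 in 11. SRSF6 was lower in 8 and higher in 12. The median member was lower in 14.5 fractions and the median gene in 10.

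Without amino acids 6 members were lower in 18 or more fractions, against 8.60% of all genes: SRSF2 in 19, and SRSF1, SRSF4, SRSF7, SRSF10 and SRSF11 in 18 each. That limit was set after the values were seen, and all of these but SRSF2 lie exactly on it. SRSF1 differed most at the end of the gradient, where its abundance was 83.1 against 214 in fraction 21 (a ratio of -1.49). SRSF11 differed most in fraction 17, at 33.8 against 79.8 (-1.55), and SRSF4 in fraction 18, at 62.9 against 153 (-1.38). SRSF10 differed most in fractions 9 and 14 (-1.44 in each) and little in fraction 19 (-0.11). Across these members the fractions with the largest gaps therefore differed.

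SRSF3 had a profile of its own in which the sign changed along the gradient. Without amino acids its ratio was above 0 in fractions 3 to 11, with the highest value in fraction 9 (0.81), and below 0 in fractions 12 to 18, with the lowest in fraction 15 (-1.22), where its abundance was 793 against 1399. In fractions 19, 20 and 21 it was again above 0 (0.07, 0.14 and 0.37). Without serum it was above 0 in fractions 3 to 10 and below 0 in fractions 11 to 22. SRSF3 was the highest member in fractions 3 to 8 without serum and 3 to 10 without amino acids.

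SRSF5, which shares its domain layout with SRSF4 and SRSF6, was more abundant in the last fractions of the starved gradients. In log phase its abundance was nearly level from fraction 18 (295) to 20 (313) and then lower in 21 (230) and 22 (213). Without amino acids it was 325 in fraction 18, 597 in 19, 842 in 20, 629 in 21 and 501 in 22. The ratio to log phase was below 0 in each of fractions 3 to 17, with the lowest value in fraction 9 (-1.21, at 23.9 against 110), and above 0 in each of fractions 19 to 22 (0.77, 1.12, 1.31 and 0.87). Without serum the same fractions 19 to 22 were higher by 0.37, 0.67, 0.82 and 0.62. Fractions 18 to 22 held 52.0% of its signal in log phase, 51.1% in the serum-free and 57.9% in the amino acid-free gradient, against 48.5%, 39.1% and 27.2% for the median gene. With equal totals these shares were 38.0%, 56.7% and 72.9%, against 32.7%, 44.0% and 41.4%.

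SRSF6 instead stood highest relative to the median gene in the middle of the starved gradients. Its ratio without serum was above 0 in each of fractions 7 to 18 and highest in fraction 11, where its abundance was 108 against 62.2 (1.11). Without amino acids it was above 0 in fractions 8 to 15, with the highest value in fraction 13 (0.67, at 85.3 against 61.7), and below 0 in fractions 3 to 7 and 16 to 22. The abundance of SRSF6 itself was lower without amino acids than in log phase in fractions 8 to 12 (37.1 against 82.7 in fraction 10). In fractions 13 to 15 it was higher. Fractions 18 to 22 held 69.6% of its signal in log phase, 44.1% in the serum-free and 37.0% in the amino acid-free gradient, and fractions 8 to 12 held 4.58%, 26.6% and 29.3%. These shares depend on the scale between fractions: fractions 8 to 12 held 7.17%, 22.5% and 23.1% of the median gene, and the other members ranged from 2.06% to 9.71%, from 9.73% to 24.3% and from 12.0% to 21.5%. With equal totals the shares of fractions 8 to 12 were 10.2%, 14.3% and 9.44% for SRSF6 and 16.4%, 13.5% and 9.57% for the median gene. Fractions 18 to 22 held 48.5%, 39.1% and 27.2% of the median gene on the deposited scale. With equal totals they held 54.2%, 54.8% and 62.5% of SRSF6 and 32.7%, 44.0% and 41.4% of the median gene. The lower SRSF6 shares of fractions 18 to 22 after starvation were thus absent with equal totals. SRSF9 also changed sign: its ratio without amino acids was above 0 in fractions 11 to 18 and below 0 in fractions 4 to 10 and 19 to 22.

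**Figure D4:**
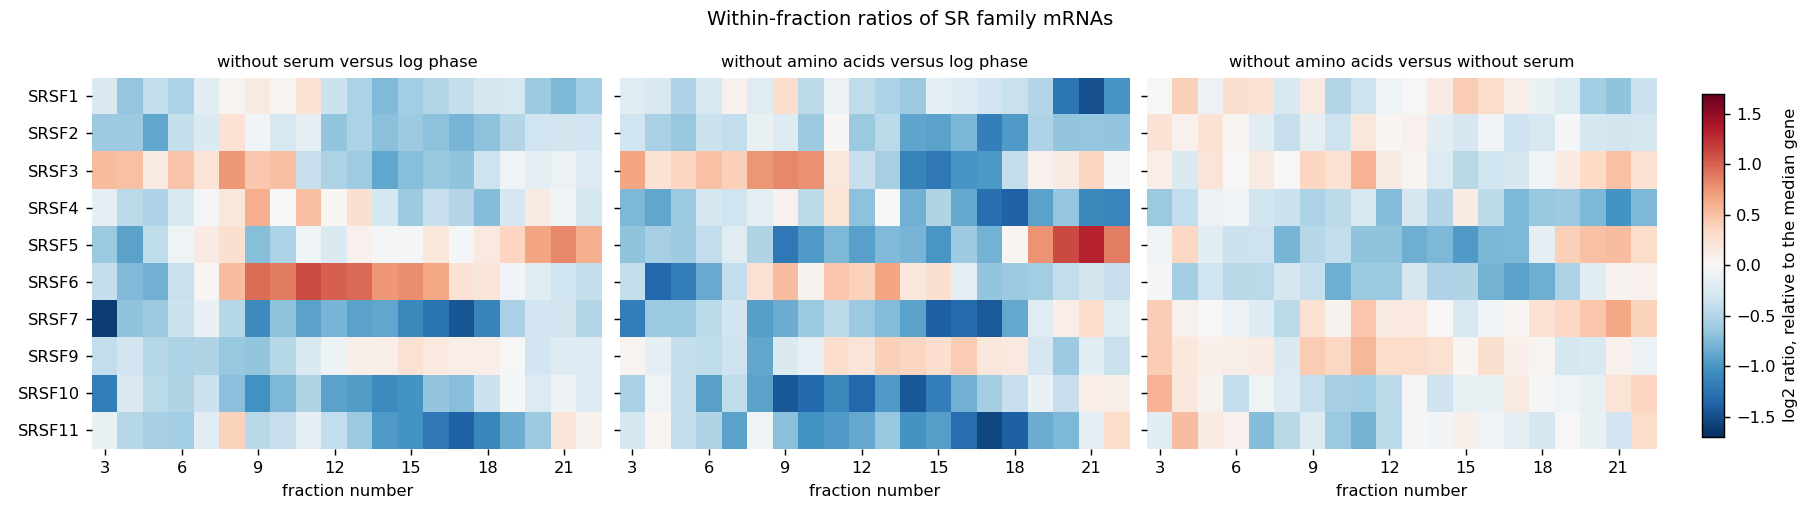
Log2 ratio of the abundance within each fraction number between gradients, minus the median gene, for 10 members (rows) and fractions 3 to 22 (columns), with blue for lower and red for higher in the first-named gradient. SRSF7 and SRSF10 are blue in every column without serum, SRSF6 is red in the middle columns, and SRSF5 without amino acids turns from blue to red at fraction 18.

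The position of an mRNA was also compared between gradients. On the deposited scale the median gene lay 1.35 fractions lower without serum than in log phase and 1.80 lower without amino acids, whereas with equal totals it lay 1.54 and 1.72 higher. Shifts are given relative to the median gene, and a shift met the size rule at 1 fraction, if the odd and the even fractions each gave 0.5 the same way. The family median was 0.56 without serum (0.48 in odd and 0.60 in even fractions) and -0.30 with equal totals. Without amino acids it was 0.36 (0.36 and 0.48), 0.13 without fraction 19 and -0.23 with equal totals, so the direction of the family's shift turned with the scale in each comparison. On the deposited scale 9 of 10 members were above 0 in each comparison, and with equal totals 3 were without serum and 5 without amino acids.

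Without serum 1 member met the rule in the lower direction, SRSF6 (position 15.64 against 18.21, shift -1.22, odd -1.38, even -1.09), against 9.86% of all genes, and 0 met it in the higher direction, against 5.70%. Weighted by log2 signal the shift of SRSF6 was 0.10, and with equal totals it was -0.58 and 0 members met the rule, and the split over all genes was 1318 higher and 1422 lower in place of 621 and 1074. Without amino acids SRSF5 met the rule in the higher direction, against 6.84% of all genes, with a position of 16.93 against 17.11 and a shift of 1.62 (1.68 in odd and 1.55 in even fractions). Its shift was 1.61 with equal totals and between 1.37 and 1.79 when any fraction was left out. SRSF6 met the rule in the lower direction, against 9.57% of all genes, at 15.15 against 18.21 and a shift of -1.27. That call was lost with equal totals (0.076), with weights of log2 signal (0.21) and without fraction 9 (-0.98). With equal totals SRSF1 and SRSF4 met the rule in the lower direction (-1.50 and -1.21), at 0.011 and 0.066 on the deposited scale. With equal totals 16.0% of all genes met it in the lower and 13.0% in the higher direction.

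The third comparison sets the starvations against each other. The treatments also differed in length, 2 h against 1 h. SRSF4 (37.6 without amino acids against 74.4 without serum) and SRSF6 (81.9 against 140) were lower relative to the median gene without amino acids, at -0.79 and -0.59, and were the 2 members to meet the smaller rule in the lower direction, against 2.12% of 7490 genes. With equal totals SRSF6, at -0.35, no longer met it and SRSF4 did. In the higher direction 0 met it, against 1.96%. SRSF4 was lower in 19 and SRSF6 in 18 of 20 fractions, against 3.12% of genes with 18 or more, the limit set after the values were seen. SRSF7 (212 against 224) and SRSF9 (195 against 213) were 0.10 and 0.05 above the median gene. The family median was -0.27 (-0.18 in odd and -0.33 in even fractions) and -0.10 with equal totals.

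Shifts between the starvations were small. The family median was -0.026, and 0 members met the shift rule, against 2.01% of genes in the higher and 1.06% in the lower direction. SRSF5 came nearest, with 0.82 (odd 0.81, even 0.80). It met the rule with equal totals, at 1.05, and the split over all genes then was 271 higher and 320 lower in place of 219 and 115.

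The other genes of the splicing pathway were described as lists. Among 12 genes for SR kinases and transport, 11 were tested for level, and without amino acids 7 met the smaller rule (17.3% of all genes) and 3 the rule of 1 (2.84%) in the lower direction: the nuclear SR kinases CLK4 (-1.17) and CLK2 (-1.10) and the export receptor NXF1 (-1.06). With equal totals CLK4 was at -1.41, CLK2 at -0.64 and NXF1 at -0.31. The list's median was -0.57, and -0.48 with equal totals. Without serum the list's median was -0.29 (-0.04 with equal totals) and 3 members met the smaller rule (12.0% of all genes). CLK4 was at 0.08 and CLK1 at 0.33 without serum, and CLK4 met the rule of 1 in the lower direction between the starvations (-1.24, and -1.38 with equal totals), against 0.0401% of all genes. The cytoplasmic kinases SRPK1 (-0.29) and SRPK2 (0.19) did not meet either rule without amino acids. Those of these kinase values that met no rule were chosen after they were seen. NXT1, the partner of NXF1, and ALYREF, an export adaptor, met the shift rule in the higher direction without serum (1.00 and 1.33) and without amino acids (1.41 and 1.02), and neither did with equal totals (0.37 and 0.63, then 0.73 and 0.17).

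Of 34 relatives with arginine-serine repeats, 12 met the smaller level rule in the lower direction without serum (12.0% of all genes) and 18 without amino acids (17.3%), with medians of -0.42 and -0.58 (-0.13 and -0.31 with equal totals). In the higher direction 1 relative, PNN, met it without serum (0.53, and 0.15 with equal totals), and 0 did without amino acids. SNRNP70, a U1 particle protein (-1.42), and BCLAF1 (-1.28) were lowest without amino acids, but were at -0.29 and -0.64 with equal totals. TRA2B, a splicing activator close to SR proteins, met the shift rule in the higher direction in both comparisons (1.28 and 1.10), but not with equal totals (0.41 and 0.46). RSRP1 (-2.37) and PNN, an exon junction protein (-2.33), had the lowest shifts without amino acids, and CLASRP (-1.65) and RSRP1 (-1.39) without serum. With equal totals RSRP1 (-0.97) and PNN (-0.80) were smaller than the rule without amino acids, as was RSRP1 without serum (-0.18), while CLASRP was at -1.07 there.

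Of 26 hnRNP genes, the other large group of splicing regulators, 11 met the smaller level rule in the lower direction without serum (12.0% of all genes) and 18 without amino acids (17.3%), with medians of -0.39 and -0.71. With equal totals these medians were 0.06 and 0.05, so their direction turned with the scale, while those of the SR family did not. HNRNPD (-1.58) and SYNCRIP (-1.37) were the lowest without amino acids, but were at -0.24 and -0.40 with equal totals. HNRNPAB (2.34) and HNRNPA3 (1.63) had the highest shifts there, and HNRNPA1 (-2.83) and PCBP2 (-1.80) the lowest. Without serum the highest were HNRNPAB (2.04) and HNRNPD (1.66) and the lowest HNRNPA1 (-2.44) and PCBP2 (-1.47). With equal totals these higher shifts were smaller than the rule (0.72 and 0.55 without amino acids, 0.58 and 0.39 without serum). Those of HNRNPA1 (-3.70 and -3.38) and PCBP2 (-4.19 and -3.40) were larger in size.

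On the deposited scale core spliceosome genes were near the median gene. Of 46 tested, 5 met the smaller level rule in the lower and 0 in the higher direction without serum (12.0% and 16.4% of all genes), and 9 and 4 without amino acids (17.3% and 19.6%), with medians of -0.02 and -0.09 (0.09 and 0.10 with equal totals). Their median shifts were 0.025 and 0.047, and -0.54 and -0.45 with equal totals. PRPF19 met the rule of 1 without amino acids (-1.16, and -0.16 with equal totals). Its shifts of 1.82 and 1.58 were the highest of the list and were 0.41 and 0.10 with equal totals. SF3A2 had the lowest shifts (-1.58 and -1.87), which were -2.52 and -2.93 with equal totals. Of 10 factors of nonsense-mediated decay, 8 were tested for level, of which 3 met the smaller rule in the lower direction without serum and 4 without amino acids (12.0% and 17.3% of all genes), with medians of -0.35 and -0.60 (-0.02 and -0.25 with equal totals). UPF1, the central helicase of that decay, was at -1.13 without amino acids and at -0.64 with equal totals. The HEK293 genes went the other way: 4 of 6 tested met the smaller rule in the higher direction in each comparison (16.4% and 19.6% of all genes), among them KRT18 (1.35 and 1.47), and their part in the differences above was not tested.

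**Figure D5:**
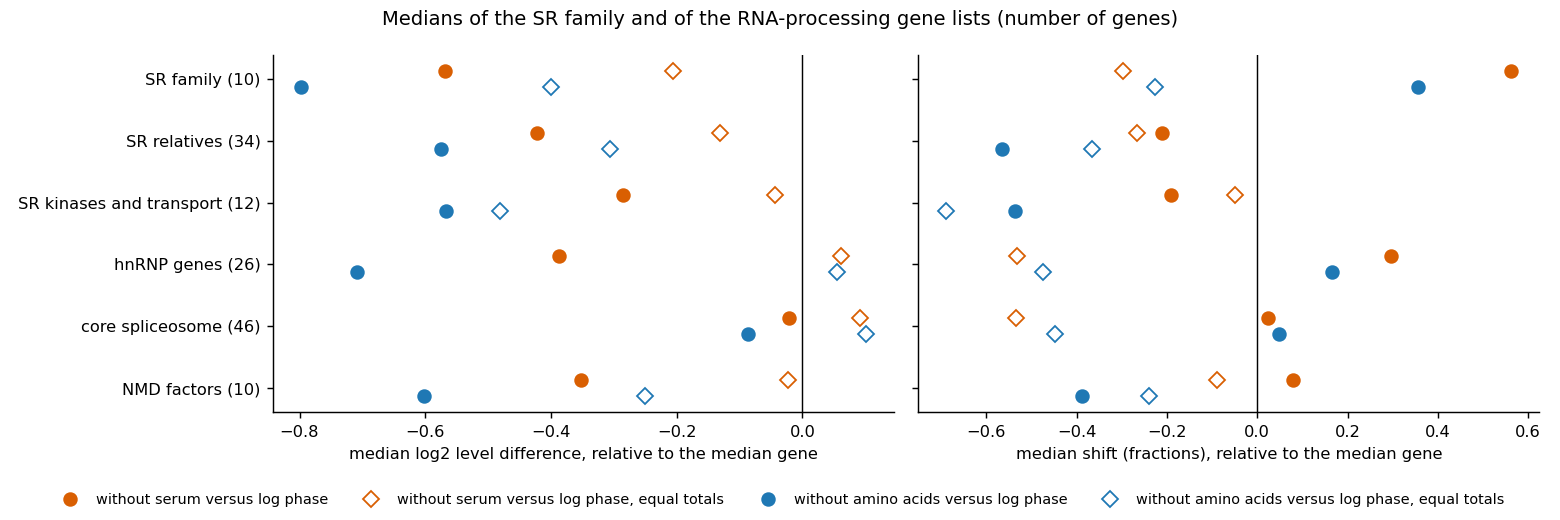
Medians over each gene list of the log2 level difference (left) and of the shift in fractions (right), relative to the median gene, with filled circles on the deposited scale and open diamonds for equal totals. On the deposited scale the SR family has the lowest median level in both comparisons, and core spliceosome genes lie nearest to 0. With equal totals the SR family is lowest without serum (-0.21). Without amino acids SR kinases and transport (-0.48) then lie below the SR family (-0.40). With equal totals the core spliceosome medians are 0.09 and 0.10 for level and -0.54 and -0.45 for shift.

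Members were compared in shape over all 60 fractions by the correlation of log2 abundance within the fraction. Pearson's r over the 45 pairs ran from 0.70 (SRSF6 with SRSF10) through a median of 0.90 to 0.96 (SRSF1 with SRSF4). Against the mean of the other members r was highest for SRSF1 (0.97) and lowest for SRSF10 (0.87) and SRSF6 (0.89). Fractions of a gradient are not independent and all genes share the gradients, so these values are descriptions, and the median gene had r = 0.80 with the family's mean profile and the 95th percentile of genes 0.95. Outside the lists, the genes most like that mean were UNG, a uracil-DNA glycosylase, CDK9, a kinase of transcription elongation, MRPS5, a mitochondrial ribosomal protein, and YWHAZ, a phosphoserine-binding adaptor, each with r = 0.99, and SEPT2, a septin, with r = 0.98.

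The members lie on 7 chromosomes in GRCh38.p14. SRSF1 is at chr17:57989038-58007246 and SRSF2 on the same chromosome at chr17:76734115-76737411. SRSF4 (chr1:29147743-29181900), SRSF10 (chr1:23964347-23980327) and SRSF11 (chr1:70205696-70253052) share chromosome 1. SRSF3 is at chr6:36594362-36605600, SRSF5 at chr14:69767142-69772005, SRSF6 at chr20:43457896-43464243, SRSF7 at chr2:38743599-38751494 and SRSF9 at chr12:120461672-120469748. All values refer to whole genes, introns and exons of which were not separated.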

How the data were processed

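Poly(A)-selected RNA of 60 gradient fractions of HEK293 cells was turned into strand-specific libraries, per the labels' protocols. The submitters' processing notes name kallisto 0.44.0, sleuth 0.29.0 and hg38. The signal that the authors deposited is 1 value per gene symbol and fraction, with 11104 rows: 11074 genes, 29 ERCC spike-ins and 1 luciferase spike-in, which stayed out of totals. The sources used here give neither library depth nor the scale of a fraction, so values carry no counting error.

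Levels (signal per 1000000 of the gradient, log2 with a pseudocount of 1, genes at 5 or more), positions, within-fraction ratios and size rules were computed in Python 3.11.15 with numpy 2.4.6 and pandas 2.3.3, over all genes and relative to the median gene. The scripts were tested on simulated data. The members and the lists were chosen with earlier results of these data known. All members are named, with the 2 most extreme members of each list past a rule and the 5 genes most like the family's mean profile. Promoters come from RefSeq (GRCh38.p14), matched by symbol. A planned comparison with genes of like protein length was not run. Alternatives were other scalings, weights, pseudocounts, filters and fractions.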

Additional observations from a re-analysis of the deposited data

How the results depend on the processing

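No paired analysis was possible because each condition has 1 gradient. Size rules are not tests, and a value is called moved where it differs from the reported one by more than the SD of its odd and even values. The cause of the changes listed here was not tested.

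With every fraction at the same total, the family's median shift was -0.30 without serum, -0.23 without amino acids and 0.29 between the starvations, its median level difference -0.21, -0.40 and -0.097, and its log phase position 15.77. Without centring on the median gene the shifts were -0.79, -1.44 and -0.49, and the level differences -0.999, -1.39 and -0.44. With the spike-in sum as the scale the shifts were 0.23, 0.15 and 0.070, the level difference without serum -0.44 and the log phase position 17.72. With weights of log2 signal the shifts were 0.15, 0.22 and 0.046 and the position 14.52. The median of within-fraction ratios was -0.33 without serum and -0.12 between the starvations. Even fractions alone gave a shift of 0.48 without amino acids, odd ones -0.083 between the starvations, and leaving out fractions 3 and 22 a position of 17.47. Leaving out each fraction in turn gave median shifts of 0.47 to 0.62 without serum, 0.13 to 0.43 without amino acids and -0.15 to 0.054 between the starvations, level differences of -0.65 to -0.54, -0.89 to -0.77 and -0.29 to -0.22, and positions of 17.07 to 17.72. The level differences thus kept their sign under each alternative run, and the shifts did not.

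Over single members, 312 alternative values stayed within their odd and even spread, 224 moved and 4 changed the sign of a value past its rule: the shift of SRSF6 without serum (0.10, log2 weights) and without amino acids (0.076, equal totals, and 0.21, log2 weights), and that of SRSF5 without amino acids without centring (-0.18).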

Other observations

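The 2 SRSF genes outside the family's list had lower levels than any member in log phase. SRSF8 was at 37.0 in log phase, 24.5 in the serum-free and 22.1 in the amino acid-free gradient, and SRSF12 at 14.4, 9.65 and 11.6. Their positions on the deposited scale, 16.58 and 16.94 in log phase, were below the family's median of 17.49. SRSF12 met the shift rule in the lower direction without serum (-1.11) and without amino acids (-1.07), and SRSF8 lay at 14.74 and 14.52 in those gradients. With equal totals SRSF8 lay at 13.0 in log phase and higher, at 14.8 and 15.1, in the starved gradients. Its shift without serum was -0.49 on the deposited scale and 0.18 with equal totals. Fractions 18 to 22 held 45.1% of SRSF8 signal in log phase, then 34.4% and 27.0%, against 48.5%, 39.1% and 27.2% for the median gene. Fractions 8 to 12 held 11.4%, 31.3% and 30.6% of SRSF8 signal, against 7.17%, 22.5% and 23.1% for the median gene.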
